A study of Mus musculus with 6 samples.

Results

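The receptors and bridging molecules of apoptotic cell clearance, 9 genes, were followed in RNA-seq libraries of brain cells from lupus-prone MRL/lpr mice and MRL/mpj control mice. The genes were chosen by symbol and not by a threshold, but with earlier results of these data known. All 9 were found among the 55401 genes counted. They are the TAM receptor tyrosine kinases Mertk, Axl and Tyro3, their ligands Gas6 and Pros1, the bridging protein gene Mfge8, the TIM family receptors Timd4 and Havcr2, and the scavenger-type receptor Megf10. Both strains share the MRL background, and MRL/lpr mice also carry the lpr mutation of the death receptor gene Fas. There were 3 libraries per strain, all from the brains of untreated mice aged 6 weeks. Per the study's methods, brain tissue was digested with collagenase at 37 °C and the cells were selected with CD11b magnetic beads, so a library is bulk RNA of every cell that came through that selection. Nothing in the labels states whether replicates are separate animals or pools, so p-values measure only the spread between these samples, which may be technical.

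A dying cell turns the lipid phosphatidylserine to its outer surface, and phagocytes read this lipid as a signal to engulf the cell. Some receptors bind the lipid directly, among them the proteins made from Timd4 (TIM-4) and Havcr2 (TIM-3). The TAM receptors bind it through the bridging ligands Gas6 and protein S, and integrins bind it through the bridging protein MFG-E8. Mertk is a defining gene of microglia and other resident macrophages, where its product both drives engulfment and restrains inflammatory signalling. Loss of some of these receptors or bridges is known to give lupus-like autoimmunity in mice, which is the background to asking how the 9 genes stood in the MRL/lpr brain. In bulk samples such as these, fewer cells of a type and less RNA per cell cannot be told apart.

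Among the 9 genes, Mfge8 and Axl were lower and Havcr2 was higher in MRL/lpr. Mfge8 fell by 35.0%, Axl fell by 24.8% and Havcr2 rose by 14.6% on normalized counts. A gene was called at an adjusted p under 0.05 in the quasi-likelihood test of edgeR, adjusted by Benjamini-Hochberg over all 19554 genes tested. All 9 genes passed the filter on low counts that set those 19554, and 6 were not called. The 3 called genes were 33.3% of the 9, beside 20.2% called in either direction among all genes tested, 11.1% higher and 9.06% lower. No gene of the 9 reached a 2-fold change (0 by DESeq2 and 0 at an unadjusted p under 0.05 as well), a size that 8.34% of all genes reached with a call. The median log2 fold change was -0.16 over the 9 genes and -0.01 over all genes tested. With a stricter filter, a minimum count of 50, 26.6% of 15000 genes were called, and the calls among the 9 were again 1 higher and 2 lower.

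The libraries held between 45481609 and 49846634 counts. MRL/lpr replicate 3 stood apart in CT010467.1, a single transcript with a 6.38% share there and a 0.169% to 0.457% share in the other libraries, so results are also given without that library where it matters. Counts piled up at multiples of 4 (1234 genes at 4 counts in MRL/lpr replicate 1, against 377 at 3 counts and 254 at 5), and whether 1 count is 1 read pair is not given in the sources used here. The methods describe female mice, whereas Xist, the transcript that silences an X chromosome in females, had 27 to 38 counts in MRL/mpj and 8886 to 11319 in MRL/lpr. Transcripts of 4 Y-linked genes summed to between 8408 and 15046 counts in every library. MRL/lpr libraries thus carried both kinds of transcript and MRL/mpj libraries mainly the Y-linked kind, so sex and strain cannot be told apart in any comparison given here. MRL/lpr libraries also spread more: the median coefficient of variation was 9.10% in MRL/lpr and 6.22% in MRL/mpj over 9298 genes with a mean of at least 10 CPM, the count per 1e6 counts of a library whose size was scaled by edgeR's trimmed mean of M-values (TMM).

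**Figure D1:**
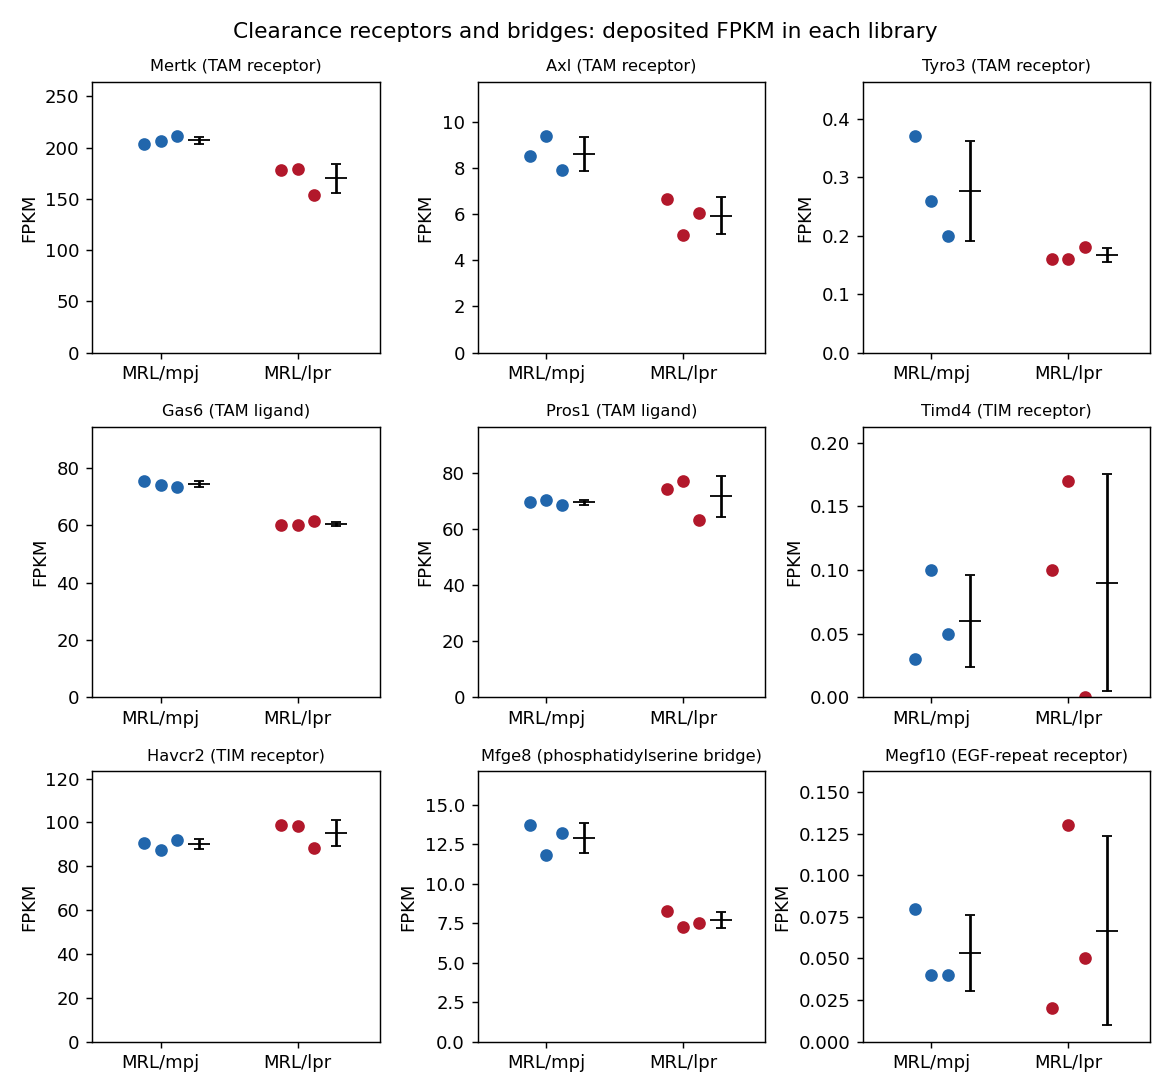
Levels of the 9 genes in every library, in the deposited FPKM (fragments scaled by gene length and library depth) 1 panel per gene with its own axis from 0; blue points are MRL/mpj libraries, red points MRL/lpr libraries, and the black marks beside them the mean and SD of 3. Mertk stood above the rest at 154 to 211 FPKM, and Timd4, Megf10 and Tyro3 stood at or under 0.37 FPKM in every library.

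Mertk was by far the most abundant of the 3 TAM receptors. It had 204, 207 and 211 FPKM in the MRL/mpj libraries and 178, 179 and 154 FPKM in the MRL/lpr libraries. All MRL/lpr values lay below all MRL/mpj values, and MRL/lpr replicate 3 was the lowest. The mean FPKM was 207 ± 3.68 (SD, n = 3) in MRL/mpj and 170.3 ± 14.0 (SD, n = 3) in MRL/lpr. On TMM-normalized counts the difference was smaller, with a log2 fold change of -0.16 (SE 0.06, 95% confidence interval -0.30 to -0.03), and it did not pass the test (edgeR adjusted p = 0.0875). Without MRL/lpr replicate 3 the log2 fold change was -0.12 with an SE of 0.03, and it passed (edgeR adjusted p = 0.029). Scaled by library size alone, the log2 fold change was -0.29 (edgeR adjusted p = 0.0226). That scaling also shifted the median of all genes tested, by -0.12 on the log2 scale. Mertk maps to chr2:128698956-128802894 on the plus strand of GRCm38 (ENSMUSG00000014361).

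Axl, the TAM receptor that binds Gas6 most tightly and is known to rise in inflamed myeloid cells, was lower in MRL/lpr. Its level was 8.52, 9.36 and 7.89 FPKM in MRL/mpj against 6.65, 5.09 and 6.05 FPKM in MRL/lpr. The strains did not overlap, and MRL/lpr replicate 2 was the lowest library. The log2 fold change was -0.41 (SE 0.12, 95% confidence interval -0.68 to -0.14, edgeR adjusted p = 0.0375). The call rested on single libraries: without MRL/lpr replicate 2 the log2 fold change was -0.30 (edgeR adjusted p = 0.102), and the adjusted p was 0.1, 0.14 and 0.0545 without MRL/mpj replicates 1, 2 and 3. Without MRL/lpr replicate 3 it was -0.45 (edgeR adjusted p = 0.0407). Over 16 alternative settings the log2 fold change kept its sign, between -0.54 and -0.30, with adjusted p from 0.0106 to 0.14. A test against a minimum fold, not among these 16, did not call Axl. Axl maps to chr7:25757273-25788705 on the minus strand (ENSMUSG00000002602).

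Tyro3, the TAM receptor best known from neurons, was at a low level in both strains. It had 129, 86 and 71 counts in MRL/mpj and 53, 55 and 57 counts in MRL/lpr. The strains barely separated in TMM-normalized counts, at 1.3639 CPM in MRL/lpr replicate 3 and 1.3646 CPM in MRL/mpj replicate 3. MRL/mpj varied more than MRL/lpr, with coefficients of variation of 31.4% and 10.4%. The log2 fold change of -0.61 had a wide interval (SE 0.34, 95% confidence interval -1.38 to 0.15) and did not pass (edgeR adjusted p = 0.262). The summed level of 10 neuronal markers moved the same way, from 48.5 to 55.5 CPM in MRL/mpj to 28.9 to 33.4 CPM in MRL/lpr, with 2 markers called lower, and its part in the Tyro3 values was not tested. Tyro3 maps to chr2:119797733-119818104 on the plus strand (ENSMUSG00000027298).

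Mertk dominated the TAM receptors in both strains. It made up 95.6% to 96.3% of their summed FPKM in MRL/mpj and 96.1% to 97.2% in MRL/lpr. Axl contributed 3.60% to 4.33% in MRL/mpj and 2.77% to 3.77% in MRL/lpr, and Tyro3 never exceeded 0.174%. The Axl to Mertk ratio within a library was 0.0418, 0.0453 and 0.0374 in MRL/mpj and 0.0374, 0.0285 and 0.0393 in MRL/lpr. These ranges overlapped, and the log2 difference of -0.25 did not pass (exact permutation test, two-sided p = 0.2, where 3 against 3 cannot go below 0.1).

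The ligand genes Gas6 and Pros1 went in opposite directions by small amounts. Gas6 encodes the ligand of all TAM receptors, and Pros1 encodes protein S, a vitamin K-dependent anticoagulant that serves Mertk and Tyro3. Gas6 had 75.55, 74.2 and 73.4 FPKM in MRL/mpj and 60.2, 60.2 and 61.5 FPKM in MRL/lpr. Every MRL/lpr library lay below every MRL/mpj library. On TMM-normalized counts the Gas6 log2 fold change was -0.17 (SE 0.06, 95% confidence interval -0.31 to -0.03) and did not pass (edgeR adjusted p = 0.0851). It passed with library size alone (-0.30, edgeR adjusted p = 0.00726), with limma on FPKM (-0.29, adjusted p = 0.00885) and without MRL/lpr replicate 3 (-0.21, edgeR adjusted p = 0.0104). Gas6 maps to chr8:13465374-13494490 on the minus strand (ENSMUSG00000031451). Its exons overlap those of Tmem255b on the other strand by 34 bases, and whether counting used strand is not given in the sources used here.

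Pros1 had 69.6, 70.2 and 68.6 FPKM in MRL/mpj and 74.4, 77.1 and 63.25 FPKM in MRL/lpr. MRL/lpr replicate 3 lay below the controls and the other MRL/lpr libraries lay above them. In TMM-normalized counts the strains separated, at 306, 308 and 301 CPM in MRL/mpj and 349, 362 and 314 CPM in MRL/lpr. The log2 fold change was 0.16 (SE 0.07, 95% confidence interval 0.01 to 0.31, edgeR adjusted p = 0.136). Among the settings tried, Pros1 passed only without MRL/lpr replicate 3 (0.22, edgeR adjusted p = 0.00448). Pros1 maps to chr16:62854307-62929346 on the plus strand (ENSMUSG00000022912).

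The ratio of the ligand transcripts does not depend on how libraries are scaled to each other. The Gas6 to Pros1 ratio in FPKM was 1.09, 1.06 and 1.07 in MRL/mpj and 0.809, 0.781 and 0.972 in MRL/lpr. By FPKM, Gas6 was thus the more abundant ligand transcript in every MRL/mpj library and Pros1 in every MRL/lpr library. Whether a ratio lies above or below 1 depends on the gene lengths used in FPKM. Gas6 made up 51.4% to 52.0% of the ligand sum in MRL/mpj and 43.9% to 49.3% in MRL/lpr. The log2 ratio averaged 0.10 ± 0.02 (SD, n = 3) in MRL/mpj and -0.23 ± 0.17 (SD, n = 3) in MRL/lpr, a difference of -0.33 (exact permutation test, two-sided p = 0.1, the smallest that 3 against 3 allows). Leaving out each library in turn gave differences between -0.43 and -0.27.

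**Figure D2:**
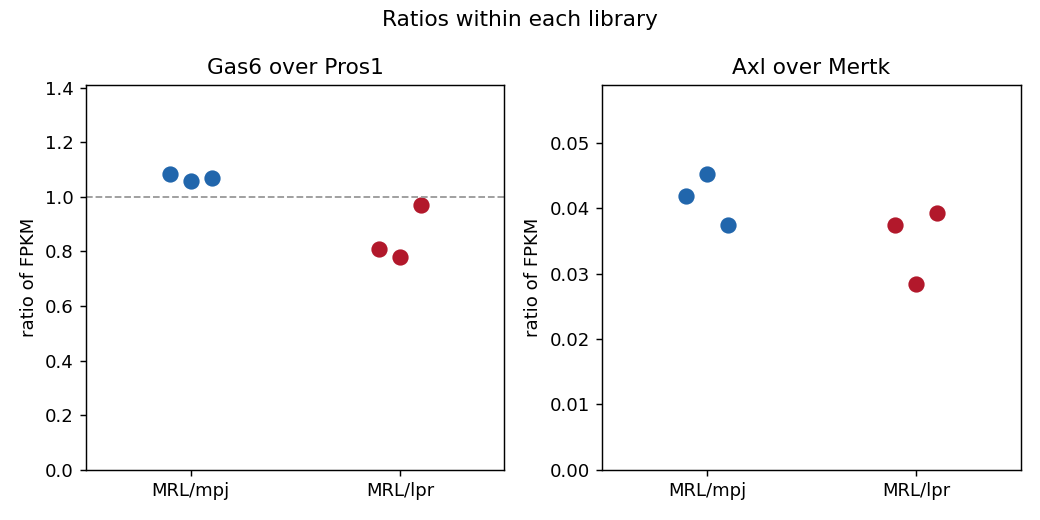
Ratios of deposited FPKM within each library, with 1 point per library, blue for MRL/mpj and red for MRL/lpr. The left panel shows Gas6 over Pros1 with a dashed line at 1, and the right panel shows Axl over Mertk. The Gas6 to Pros1 ratio lay at 1.06 to 1.09 in MRL/mpj and at 0.781 to 0.972 in MRL/lpr, whereas the Axl to Mertk ratios of the strains overlapped.

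Mfge8 showed the clearest difference of the 9 genes. Its product, MFG-E8, is secreted and links phosphatidylserine on a dying cell to the integrins αvβ3 and αvβ5 on the phagocyte. Mfge8 had 13.7, 11.8 and 13.2 FPKM in MRL/mpj and 8.26, 7.28 and 7.54 FPKM in MRL/lpr. Every MRL/lpr library was below every MRL/mpj library. The log2 fold change was -0.62 (SE 0.09, 95% confidence interval -0.83 to -0.42, edgeR adjusted p = 0.00116). Over 16 alternative settings it stayed between -0.75 and -0.57, and the adjusted p lay between 2.62e-07 and 0.00863. A test against a minimum fold, not among these 16, did not call Mfge8. Without MRL/lpr replicate 3 it was -0.63 (edgeR adjusted p = 0.00186). Mfge8 maps to chr7:79133768-79149060 on the minus strand (ENSMUSG00000030605).

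Of the 3 integrin genes that pair with MFG-E8, edgeR called 0, DESeq2 called 1 and 2 had an unadjusted p under 0.05. Itgav had a log2 fold change of -0.66 (SE 0.19, edgeR adjusted p = 0.0511) and passed with DESeq2 (-0.67, adjusted p = 0.000602), with 3779 to 6369 counts in MRL/mpj and 2494 to 3399 in MRL/lpr. Itgb5 stood at -0.03 (SE 0.10, edgeR adjusted p = 0.854). Itgb3 stood at 0.94 (SE 0.33, edgeR adjusted p = 0.115), and its MRL/mpj counts of 4233, 2006 and 2119 put 1 control library at the MRL/lpr level.

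Mfge8, Gas6 and Axl are also known from astrocytes, pericytes and other vascular cells, so markers of those cells were measured beside them. The summed level of 10 astrocyte markers was 206 to 215 CPM in MRL/mpj and 127 to 173 CPM in MRL/lpr, with 1 called lower. That marker, Slc1a3, averaged 130 CPM in MRL/mpj and 66.1 CPM in MRL/lpr and carried the fall of the sum. The other astrocyte markers went both ways. Gfap and Aldh1l1 had all MRL/lpr libraries above all MRL/mpj libraries, and Slc1a2, Aldoc and S100b had them all below. The sum of 6 pericyte markers was 321 to 331 CPM in MRL/mpj and 215 to 277 CPM in MRL/lpr, with 3 called lower. The sum of 8 choroid plexus and ependymal markers was 1057 to 1142 CPM in MRL/mpj and 362 to 376 CPM in MRL/lpr, with 5 called lower. Most of that sum was the choroid plexus gene Ttr, which averaged 942 CPM in MRL/mpj and 302 CPM in MRL/lpr. The ependymal markers Foxj1, Ccdc153 and Tmem212 were not called, at log2 fold changes of -0.43, 0.33 and 0.16. The sum of 8 endothelial markers was 1957 to 2008 CPM in MRL/mpj and 1952 to 2100 CPM in MRL/lpr, with 2 called higher and 2 lower. No marker of these lists was at 0 in all libraries, and their part in the values of Mfge8, Gas6 and Axl was not tested.

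Havcr2 was the second most abundant gene of the set. Its product TIM-3 binds phosphatidylserine as well as galectin-9, is best known as an inhibitory receptor of T cells, and is also a microglial gene. Havcr2 had 90.8, 87.5 and 92.2 FPKM in MRL/mpj and 98.6, 98.4 and 88.45 FPKM in MRL/lpr, so the strains overlapped in FPKM. In TMM-normalized counts they did not, with 266, 256 and 269.5 CPM in MRL/mpj and 308, 307 and 292 CPM in MRL/lpr. The log2 fold change was 0.20 (SE 0.06, 95% confidence interval 0.06 to 0.33, edgeR adjusted p = 0.0434). The call was lost in 12 of 17 alternative settings, among them DESeq2 (adjusted p = 0.0709), library size alone (0.07, edgeR adjusted p = 0.50) and limma on FPKM (adjusted p = 0.463). Without MRL/lpr replicate 3 it was 0.23 (edgeR adjusted p = 0.00531), and without any other library it was lost, with log2 fold changes of 0.17 to 0.21 and edgeR adjusted p of 0.0987 to 0.189. The sum of 8 T and NK cell markers rose from 4.88 to 6.34 CPM in MRL/mpj to 15.8 to 21.99 CPM in MRL/lpr. Of these markers 5 were called higher, Cd3e, Cd3g, Cd4, Cd8a and Lck. The NK cell marker Klrb1c went the other way without a call, with 75, 16 and 82 counts in MRL/mpj and 23, 0 and 0 in MRL/lpr. Ncr1 overlapped between the strains. Cd3e, Ncr1 and Klrb1c were at 0 in at least 1 library. The part of this sum in the Havcr2 values was not tested. Havcr2 maps to chr11:46454935-46481255 on the plus strand (ENSMUSG00000020399).

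Timd4, which lies near Havcr2 at chr11:46810800-46844332 on the plus strand (ENSMUSG00000055546) and marks long-lived tissue-resident macrophages, was barely detected. It had 4, 12 and 6 counts in MRL/mpj and 12, 20 and 0 counts in MRL/lpr. The strains overlapped (log2 fold change 0.65, SE 1.24, edgeR adjusted p = 0.779). The sum of 10 border macrophage markers was 62.9 to 70.0 CPM in MRL/mpj and 53.8 to 56.5 CPM in MRL/lpr. Of these markers 2 were called lower, Mrc1 and Cbr2. Cd163 had all MRL/lpr libraries above all MRL/mpj libraries but was not called.

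Megf10, an engulfment receptor best known from astrocytes and muscle satellite cells, was as sparse. On chromosome 18 (ENSMUSG00000024593), it had 33, 18 and 18 counts in MRL/mpj and 8, 55 and 19 counts in MRL/lpr. The libraries of the strains overlapped (log2 fold change 0.41, SE 0.75, edgeR adjusted p = 0.77). The 95% confidence intervals of Timd4, Megf10 and Tyro3 all included the log2 fold change of -0.62 seen in Mfge8 as well as 0.

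**Figure D3:**
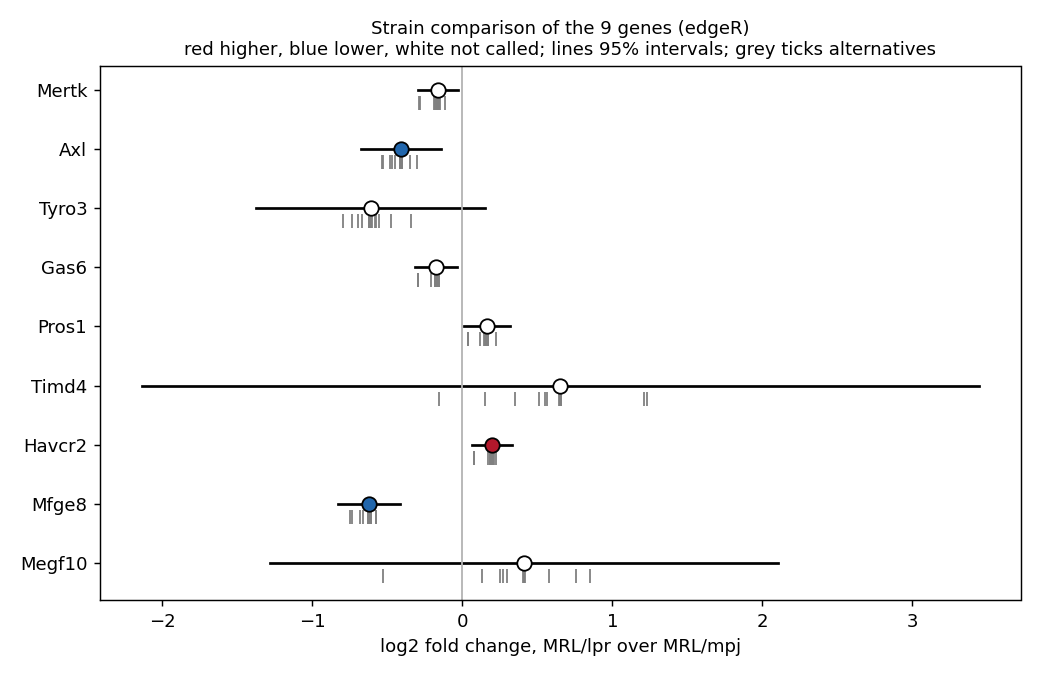
Log2 fold change of MRL/lpr over MRL/mpj for each of the 9 genes from edgeR on TMM-normalized counts, with lines for the 95% confidence interval, grey ticks for the alternative settings, and points red where called higher, blue where called lower and white where not called. Mfge8 at -0.62 and Axl at -0.41 lay below 0, Havcr2 at 0.20 lay above it, and the intervals of Tyro3, Timd4 and Megf10 crossed it.

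Ordered by length-corrected level, Mertk came first and Havcr2 second in both strains. Pros1 and Gas6 followed, with Gas6 ahead in MRL/mpj and Pros1 ahead in MRL/lpr, and then came Mfge8, Axl and Tyro3. Neighbours in this order did not overlap within a strain, except Tyro3 with Timd4 in MRL/lpr and Timd4 with Megf10 in both. Against all genes tested, mean FPKM placed Mertk at percentile 99.2, Havcr2 at 98.2, Pros1 at 97.6 and Gas6 at 97.5. Mfge8 stood at percentile 80.1 and Axl at 73.4, whereas Tyro3 stood at 14.1, Timd4 at 3.98 and Megf10 at 2.75. Counted by overlap in TMM-normalized counts, 2 of the 9 genes had all MRL/lpr libraries above all MRL/mpj libraries, where 19.6% of all genes did. Another 5 had them all below, where 19.4% of all genes did, and Timd4 and Megf10 overlapped. In either direction, 7 of the 9 genes did not overlap, beside 39% of all genes tested. Tyro3 was among the 7 by a margin close to a tie, 1.3639 against 1.3646 CPM.

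The start regions of the 3 called genes are shown because they let their base composition be compared. Each is the 250 bases before the RefSeq start on GRCm38.p6, read along the gene's strand, and 8 of the 9 genes had an entry. Capitals mark GGGCGG, the GC box, and GAGGAA, the core of many PU.1 sites, on either strand.
Mfge8: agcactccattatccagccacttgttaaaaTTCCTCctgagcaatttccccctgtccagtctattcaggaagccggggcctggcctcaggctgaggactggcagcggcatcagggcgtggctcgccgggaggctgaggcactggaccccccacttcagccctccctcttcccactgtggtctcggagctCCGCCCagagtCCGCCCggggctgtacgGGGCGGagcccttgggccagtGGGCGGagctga
Axl: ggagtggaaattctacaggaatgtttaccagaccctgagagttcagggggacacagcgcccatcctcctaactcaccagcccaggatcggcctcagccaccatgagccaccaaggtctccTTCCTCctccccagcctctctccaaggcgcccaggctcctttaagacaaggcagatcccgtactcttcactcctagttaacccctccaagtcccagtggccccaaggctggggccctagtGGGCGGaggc
Havcr2: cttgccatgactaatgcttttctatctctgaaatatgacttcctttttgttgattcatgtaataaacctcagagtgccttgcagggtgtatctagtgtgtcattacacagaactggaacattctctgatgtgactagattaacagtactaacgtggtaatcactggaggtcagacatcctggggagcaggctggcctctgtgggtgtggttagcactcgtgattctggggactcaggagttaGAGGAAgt

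The Mfge8 stretch lies at chr7:79149061-79149310, had 65.2% GC and held 4 GC boxes. The Axl stretch, at chr7:25788734-25788983, had 60% GC and 1 GC box. The Havcr2 stretch, at chr11:46454681-46454930, had 44.8% GC and no GC box, where 32.7% of 32851 such stretches in the table held at least 1. CpG dinucleotides numbered 12, 5 and 2 in the same order. Each stretch held 1 GAGGAA, found in 23.3% of all stretches. The interferon-stimulated response element core, present in 2.98% of all stretches, was in none of the 8. A nuclear receptor half-site, AGGTCA, present in 14% of all stretches, was in Havcr2 and Timd4. Matches were searched on both strands and are descriptions of the letters, not sites.

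Some genes followed the 3 called genes closely over the 6 libraries, by Pearson's r of log2 CPM among 9294 genes with a mean of at least 10 CPM. Mfge8 was most like Pecr, a peroxisomal enoyl-CoA reductase gene (r = 0.9994), Adarb1, an RNA-editing deaminase gene (r = 0.9959), and Slc25a17, a peroxisomal carrier gene (r = 0.9951). Axl was most like Brk1, which encodes a subunit of the actin-nucleating WAVE complex (r = 0.9962), Usf2, a transcription factor gene (r = 0.9935), and Aco1, an iron-sensing aconitase gene (r = 0.9846). Havcr2 was most like the kinase gene Stk17b (r = 0.9985), the transcription factor gene Tgif1 (r = 0.9982) and Sde2 (r = 0.9972). The libraries share strain and depth, and 321, 42 and 444 genes reached r over 0.95 with Mfge8, Axl and Havcr2, so such values were common.

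Beyond the 9 genes, 115 others of the clearance pathway were listed by role. Of the 109 tested, 17 were higher, 12 were lower and 80 were not called, which is 26.6% called beside 20.2% of all genes tested. Their median log2 fold change was 0.07. Past 2-fold, 4 were higher and 3 were lower, beside 4.67% and 3.66% of all genes tested. The share among all genes depended on the filter on low counts. At a minimum count of 50 it was 26.6% of 15000 genes, with 18 genes of the list higher and 14 lower. Of the 29 calls, 18 held in all of 16 alternative settings, a test against a minimum fold aside.

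Among 23 other clearance receptors, 4 rose and 3 fell, which is 30.4% called beside 20.2% of all genes tested. Cd300lf, which encodes a phosphatidylserine receptor of myeloid cells, rose from 82.4 ± 4.14 CPM (SD, n = 3) in MRL/mpj to 279 ± 18.8 CPM (SD, n = 3) in MRL/lpr, a log2 fold change of 1.76 (SE 0.08, edgeR adjusted p = 9.22e-07). Msr1, a scavenger receptor gene, rose by 0.96 on the log2 scale (SE 0.24, edgeR adjusted p = 0.0187), although the call was lost without MRL/lpr replicate 2, MRL/mpj replicate 1 or MRL/mpj replicate 2, with adjusted p up to 0.0931 over all settings. Havcr1, which encodes the phosphatidylserine receptor TIM-1, fell by 1.53 on the log2 scale (SE 0.38, edgeR adjusted p = 0.019), a call lost without replicate 2 of either strain, with adjusted p up to 0.0831. The Megf10 relative Megf11 (log2 fold change 0.15, SE 0.24, edgeR adjusted p = 0.742) and Gulp1, whose product is an engulfment adaptor (0.30, SE 0.24, edgeR adjusted p = 0.438), did not pass.

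Of 11 other bridges and opsonins, 3 rose and 4 fell, which is 63.6% called beside 20.2% of all genes tested. Apoe, the main lipid carrier of the brain, fell from 1390 ± 208 CPM (SD, n = 3) in MRL/mpj to 498 ± 90.1 CPM (SD, n = 3) in MRL/lpr, a log2 fold change of -1.48 (SE 0.16, edgeR adjusted p = 0.000783). C1qb, which encodes a chain of complement C1q, fell by 0.89 on the log2 scale (SE 0.11, edgeR adjusted p = 0.000461). C3, the central complement gene, rose by 1.23 (SE 0.11, edgeR adjusted p = 5.17e-05). The sums of astrocyte and choroid plexus markers given above moved with Apoe, the astrocyte sum through Slc1a3. The part of these cells in the Apoe values was not tested.

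Some genes that carry the TAM signal were called higher, and those that make or cut the TAM proteins were not called. Of 10 TAM signalling genes 3 rose. That is 30% called, beside 20.2% of all genes tested called in either direction and 11.1% called higher. Among the 3, Pik3r1, a kinase subunit gene, rose by 0.66 (SE 0.08, edgeR adjusted p = 0.000412) and Socs3 by 0.38 on the log2 scale (SE 0.06, edgeR adjusted p = 0.00201). The Socs3 call was lost with limma on FPKM (adjusted p = 0.0602). Socs3 also serves cytokine receptors. Socs1, the other suppressor of cytokine signalling known as a TAM target, stood at 0.34 (SE 0.20, edgeR adjusted p = 0.288). The vitamin K-dependent carboxylation that activates Gas6 and protein S needs Ggcx, at -0.32 (SE 0.12, edgeR adjusted p = 0.102), and Vkorc1, at -0.27 (SE 0.09, edgeR adjusted p = 0.0623). The sheddases that release Mertk and Axl from the surface were also not called, with Adam17 at -0.02 (SE 0.19, edgeR adjusted p = 0.952) and Adam10 at -0.13 (SE 0.23, edgeR adjusted p = 0.767). In these last roles, with 3 and 2 genes, DESeq2 called 0 as well, and 2 and 0 genes had an unadjusted p under 0.05.

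Among 5 ligands and partners of TIM-3, 1 was called, which is 20% beside 20.2% of all genes tested. Fyn, whose kinase binds the tail of TIM-3, rose by 0.44 on the log2 scale (SE 0.13, edgeR adjusted p = 0.0374), a call that held without MRL/mpj replicate 3 and was lost without any other library, with adjusted p up to 0.142. Lgals9, which encodes galectin-9, stood at 0.05 (SE 0.06, edgeR adjusted p = 0.662). Signals that restrain uptake went both ways: Siglecg, a gene of an inhibitory lectin receptor best known from B cells, rose from 4.15 ± 0.521 CPM (SD, n = 3) to 18.5 ± 0.736 CPM (SD, n = 3), a log2 fold change of 2.15 (SE 0.15, edgeR adjusted p = 1e-05). Sirpa, whose product reads the CD47 signal, fell by 0.55 on the log2 scale (SE 0.10, edgeR adjusted p = 0.00509). The sum of 8 B and plasma cell markers was 14.0 to 15.2 CPM in MRL/mpj and 29.5 to 31.8 CPM in MRL/lpr, with 2 of the 7 tested called higher, and its part in the Siglecg values was not tested.

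Calls were counted in the same way at the steps of attraction, exposure, engulfment and digestion. They made up 14.3%, 0%, 6.25% and 9.09% of the genes tested there, beside 20.2% of all genes tested. Of 16 genes of the engulfment machinery 1 was called, Rac2, a small GTPase gene of blood-derived cells, which rose by 0.37 on the log2 scale (SE 0.08, edgeR adjusted p = 0.0118) and was lost without MRL/mpj replicate 3 (adjusted p up to 0.0571 over all settings). Of 11 genes of corpse digestion 1 was called, the lysosomal nuclease gene Dnase2a, which fell by 0.37 on the log2 scale (SE 0.08, edgeR adjusted p = 0.0138) and held only without MRL/lpr replicate 3 or MRL/mpj replicate 1 among the left-out fits (adjusted p up to 0.0575). Of 11 genes of sterol sensing and efflux 4 rose and 2 fell, which is 54.5% called. Abca7, a lipid transporter gene, rose by 0.61 (SE 0.07, edgeR adjusted p = 0.00035) and the mitochondrial carrier gene Ucp2 rose by 0.54 on the log2 scale (SE 0.09, edgeR adjusted p = 0.00262), while the cholesterol exporter gene Abca1 fell by 0.28 on the log2 scale (SE 0.06, edgeR adjusted p = 0.0129). The related exporter gene Abcg1 rose by 0.42 on the log2 scale (SE 0.10, edgeR adjusted p = 0.0135). The Abca1 call was lost without MRL/lpr replicate 2 or MRL/mpj replicate 3 (adjusted p up to 0.0622), and the Abcg1 call without MRL/mpj replicate 1 or 3 (adjusted p up to 0.0652). Nr1h3, which encodes the sterol sensor LXRα, stood at 0.42 (SE 0.40, edgeR adjusted p = 0.531). Of 7 genes of attraction signals and their receptors 1 was called, Gpr132, a receptor gene for lysophospholipid signals, which fell by 1.06 on the log2 scale (SE 0.28, edgeR adjusted p = 0.0274) and held only without MRL/lpr replicate 2 or 3 among the left-out fits (adjusted p up to 0.0852). Of 5 genes that expose phosphatidylserine none was called (0 by DESeq2 as well, and 1 at an unadjusted p under 0.05).

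**Figure D4:**
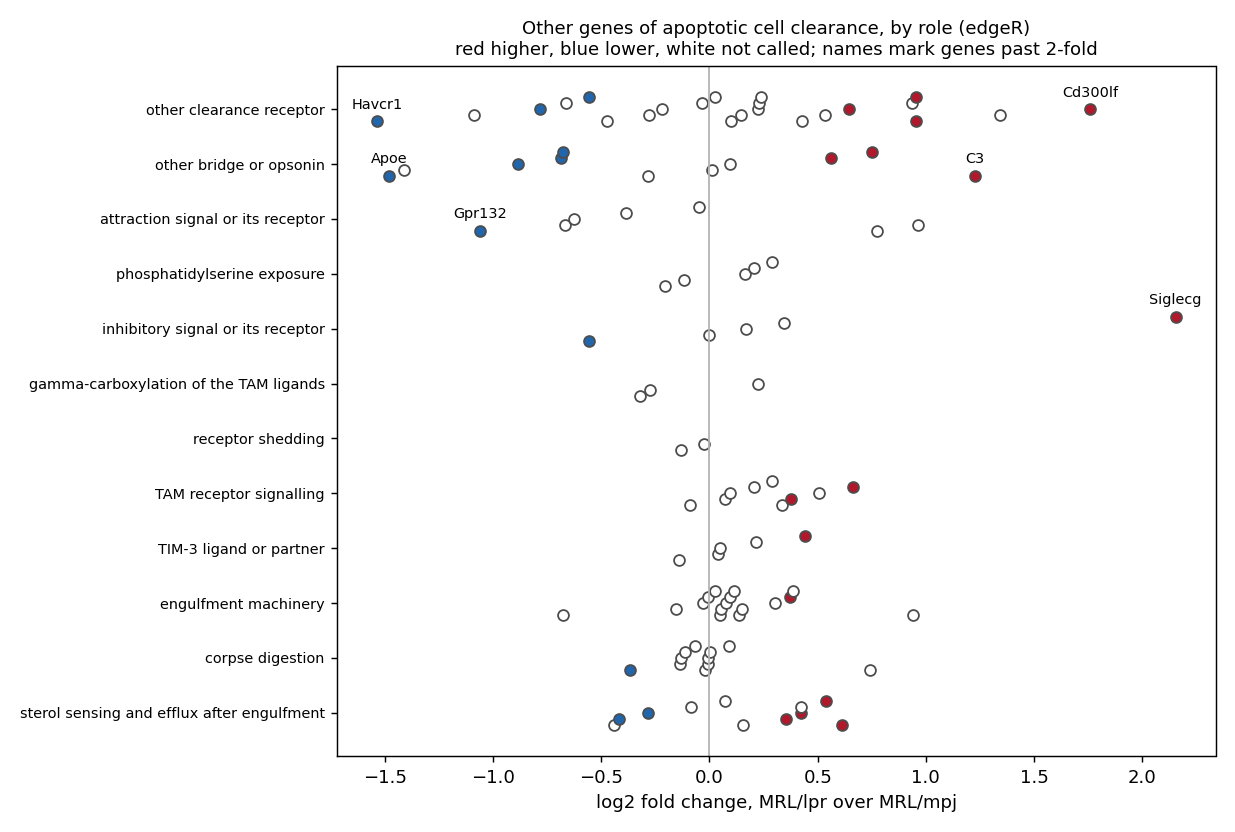
Log2 fold change of MRL/lpr over MRL/mpj from edgeR for the tested genes of the clearance pathway list, grouped by role, with 1 point per gene, red where called higher, blue where called lower and white where not called, and names on calls past 2-fold (1 gene is not shown). Called genes lay on both sides of 0 among receptors, bridges and sterol genes, and no gene of phosphatidylserine exposure, carboxylation or shedding was called.

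The cell type named by the labels was present, and its markers differed between strains as well. The sum of 10 microglial markers was 26717 to 27331 CPM in MRL/mpj and 22505 to 25164 CPM in MRL/lpr, with 3 called lower and none at 0. Monocyte markers summed to 583 to 611 CPM in MRL/mpj and 604 to 691 CPM in MRL/lpr, with 4 of 8 called higher and 1 lower. Neutrophil markers summed to 276 to 320 CPM in MRL/mpj and 343 to 389 CPM in MRL/lpr, with 2 of 8 called higher. Markers of oligodendrocytes, at 167 to 199 CPM in MRL/mpj and 131 to 153 CPM in MRL/lpr, and of their precursors, at 26.3 to 27.8 and 10.8 to 15.003 CPM, had 2 of 8 and 3 of 5 tested genes called lower. The part of these cells in the values of Mertk, Gas6, Pros1 and Havcr2 was not tested.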

How the data were processed

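RNA of CD11b-selected brain cells was sequenced from 3 MRL/lpr and 3 MRL/mpj mouse samples. The authors deposited raw counts per gene, whole numbers without normalization, and FPKM per library. The labels describe ribosomal RNA removal and a stranded total RNA kit. The submitters' processing notes name cutadapt 1.9.3, HISAT2 2.0.4, Cuffdiff 2.2.1 and GRCm38, and the methods name DESeq2. The counting tool and its strand setting are not given in the sources used here. Groups came from the genotype label. Symbols and coordinates came from GENCODE M21, which matched 55141 of 55401 identifiers.

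Genes were kept by filterByExpr (minimum count 10, total 15), scaled by TMM and tested with edgeR 4.0.16 in R 4.3.3 (robust quasi-likelihood, strain as the only term). Alternatives used DESeq2 1.42.0 and limma 3.58.1 on log2(FPKM + 0.1), whose fold changes understate those of low genes. Levels of different genes were compared in FPKM only, and within-library ratios by a two-sided exact permutation test. The edgeR fits with and without a replicate block, DESeq2 and limma were first run on counts simulated with the same dispersion for every gene. That run checked the code and not how well the models suit these data. The 9 genes, the pathway list and the marker lists were chosen with earlier results of these data known. Named pathway genes were up to 3 called genes of each role with the highest absolute log2 fold change and at least 10 counts in every library of a strain, plus a listed set of partners of the 9 genes. The 3 genes of highest Pearson's r were named for each called gene. A gene of the pathway list is not reported here.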

Additional observations from a re-analysis of the deposited data

How the results depend on the processing

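Of the 17 alternatives, the direction of Mertk, Axl, Tyro3, Gas6, Pros1, Havcr2 and Mfge8 turned in none. Timd4 and Megf10 turned without MRL/lpr replicate 2, and with a library left out they ran from -0.16 to 1.23 and from -0.53 to 0.85 on the log2 scale. The number of the 9 genes called higher (1) was 0 with DESeq2, library size alone, no low-count filter, dispersions not robust, a test against a minimum fold (glmTreat), limma on FPKM and the replicate block, and 0 to 2 with a library left out. The number called lower (2) was 4 with library size alone, 4 with limma on FPKM, 0 with glmTreat and 1 with the block, and 1 to 4 with a library left out. Among all genes tested, 8.36% were called higher and 14.3% lower with library size alone, 7.48% and 11.3% with limma, 8.97% and 6.69% with the block, 1.94% and 1.21% with glmTreat, and 7.95% to 11.6% and 5.75% to 9.64% with a library left out. For the pathway list, higher calls (17) were 2 with glmTreat and 11 with limma on FPKM, and 14 to 21 with a library left out. Lower calls (12) were 22 with library size alone, 21 with limma on FPKM and 0 with glmTreat, and 8 to 19 with a library left out. Past 2-fold, higher calls (4) were 2 with glmTreat and 4 to 6 with a library left out. Lower calls past 2-fold (3) were 5 with library size alone, 5 with limma on FPKM, 0 with glmTreat and 1 with the block, and 1 to 6 with a library left out. Library size alone moved the median gene to -0.13 on the log2 scale. The cause of these changes, the part of that shift and of the fewer samples in the left-out fits included, was not tested.

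Taken from TMM-scaled CPM instead of FPKM, the log2 ratio of strain means was -0.16 for Mertk, -0.17 for Gas6, 0.16 for Pros1, 0.20 for Havcr2 and -0.62 for Mfge8. Same-numbered samples of the strains only share a number: their deviations correlated at -0.115, -0.15 and -0.174, and no sample correlated best with its own number. Timd4 and Megf10 had at most 55 counts in a library. Tyro3 had 53 to 129 counts, and dividing all counts by 4 left its SE at 0.34. Without MRL/mpj replicate 1 its log2 fold change was -0.34.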

Other observations

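Some abundant genes of the pathway list, chosen here after their values were seen, differed by over 1.5 times between libraries of 1 strain. This held for 14 of 90 pathway genes with a mean of at least 10 CPM (15.6%), for 13% of 9298 such genes in all, and for 0 of the 6 such genes among the receptors and bridges described above. Cx3cr1, the microglial fractalkine receptor gene, had 132706 counts in MRL/lpr replicate 2, beside 10645 and 10334 in the other MRL/lpr libraries and 27912 to 29349 in MRL/mpj. Abl1, a kinase gene of the cytoskeleton, had 16314 counts in MRL/lpr replicate 3 but 6642 and 7450 in its fellow libraries, where MRL/mpj had 18495 to 19202. Rac1, the GTPase gene that drives engulfment, had 8869 counts in MRL/mpj replicate 1 and 17508 to 21513 in the other libraries. Grb2, an adaptor gene of TAM signalling, had 4509 to 5016 counts in 3 libraries, MRL/lpr replicate 3 among them, and 10082 to 10762 in the rest. The sheddase gene Adam10 had 8916 counts in MRL/lpr replicate 3 and 17064 to 19454 elsewhere. The cause of these steps was not tested.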
